A study of Mus musculus with 8 samples.

Results

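Miat, also known as Gomafu, is a long noncoding RNA (lncRNA) that is spliced and polyadenylated like an mRNA but is kept in the nucleus of neurons, where it sits in many small spots. It was followed here in the hippocampus of young mice given repeated ketamine, together with 8 other noncoding RNAs known mainly from the nucleus: Malat1, Neat1, Meg3, Rian, Mirg, Snhg11, Kcnq1ot1 and Airn. The question was whether the higher level of Miat after ketamine was shared by the others. Miat was chosen by its own values in the Anesthesia and Control groups, so its difference is given as a description without a test, whereas the other 8 genes were chosen as a class. All 9 genes were found by symbol among the 20802 genes of the deposited table, and all 9 passed the minimum for testing, a mean of 10 normalized counts over the 8 mice, which 18865 genes passed.

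The Anesthesia group comprised 4 male C57BL/6 mice given ketamine, an NMDA receptor blocker used as an anesthetic, by intraperitoneal injection at 35 mg/kg once daily from postnatal day 16, with 5 injections in all. The Control group comprised 4 male mice of the same strain that went through the same handling with normal saline according to the protocol, although their titles call them untreated. The strain carried no engineered allele in either group, and total RNA was prepared from the hippocampus at P28, 1 week after the last injection. All values below are normalized counts, which are read counts per gene divided by a size factor of the library. Nothing in the labels says more about the mice than that each was a separate sample, so the p-values measure the spread between these 8 samples. The sums of the table ran from 18702634 to 19231119 per mouse after normalization and do not show how deeply each library was sequenced. Markers of dentate granule neurons and of CA1 pyramidal neurons were present in every mouse, with summed normalized counts of 7783 to 14557 and 10576 to 12975. The choroid plexus, a tissue of the ventricle next to the hippocampus, was unevenly included. The summed counts of 12 of its markers were 57894, 912, 518 and 3361 in Anesthesia mice 1 to 4 and 651, 26914, 67522 and 67262 in Control mice 1 to 4. Thus 3 mice of the Anesthesia group and 1 of the Control group held little of it.

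Nuclear lncRNAs act in several ways. Malat1 is concentrated in nuclear speckles, the stores of splicing factors, and Neat1 is the RNA scaffold of paraspeckles. Meg3, Rian and Mirg are expressed from the maternal chromosome of the imprinted Dlk1-Dio3 region, and Kcnq1ot1 and Airn are long transcripts from the paternal chromosome that silence neighboring imprinted genes. Snhg11 is a host gene of small nucleolar RNAs that is expressed in neurons. Miat is known for carrying repeats of a short motif, TACTAAC in DNA letters, which matches an intron branch point sequence bound by the splicing factor Sf1.

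The stretches that hold the repeats are shown because Miat carried more copies of TACTAAC than any of the other 8 genes. Miat lies on the minus strand of chromosome 5 in GRCm38, from 112213228 to 112229395. Its longest GENCODE M21 transcript, ENSMUST00000182953.7, has 7 exons and 9163 bases. Both stretches are exonic and lie in exon 7, the last exon, which is 7008 bases long. The first stretch spans chr5:112217314-112217455 and the second spans chr5:112216757-112216807. Both were read from the minus strand, 5′ to 3′, and the capitals mark TACTAAC.
Miat stretch 1: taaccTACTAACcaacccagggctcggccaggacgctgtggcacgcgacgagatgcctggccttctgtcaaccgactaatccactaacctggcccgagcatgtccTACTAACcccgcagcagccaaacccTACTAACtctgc
Miat stretch 2: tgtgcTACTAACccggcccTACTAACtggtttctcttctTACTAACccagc
Each stretch held 3 copies, in 142 and 51 bases, so these stretches held all 6 copies of the transcript. The shorter form ACTAAC, which every TACTAAC contains, was found 11 times in the Miat transcript on its own strand, 20 times in the longer Kcnq1ot1, 4 times in Neat1, and once each in Meg3, Mirg and Snhg11. Kcnq1ot1 held 4 copies of TACTAAC in 93092 bases and Neat1 held 1 in 20771 bases. No copy was found in the longest transcript of Malat1, Meg3, Rian, Mirg, Snhg11 or Airn. Of the 4430 lncRNA genes listed in the table, 321 (7.2%) held at least 1 copy in their longest transcript, and Miat was the 1 gene with 6 or more. Among the 156 of them with 5000 to 15000 bases, 26 (16.7%) held at least 1.

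Miat was at 8280, 9581, 10566 and 10775 normalized counts in Anesthesia mice 1 to 4. It was at 7525, 7574, 6734 and 6326 in Control mice 1 to 4. All 4 Anesthesia mice were above all 4 Control mice, and the lowest of them, mouse 1, was also the 1 Anesthesia mouse with much choroid plexus. The means were 9800 ± 1140 (SD, n = 4) and 7040 ± 612 (SD, n = 4). The log2 fold change was 0.47 (SE 0.09), which is 1.39-fold, on the log2(value + 1) scale used for every fold change here. Among all genes tested, 2.81% had the same pattern of non-overlapping groups with Anesthesia higher and 2.23% the opposite one, but nothing is read from this for Miat, which was chosen by these values. In bulk tissue, more cells containing Miat and more Miat per cell cannot be told apart.

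Values of Miat are given by the amount of choroid plexus as a description. Since all 4 Anesthesia mice lay above all 4 Control mice, any division of the mice gives the same direction, and each class has a single mouse on one side. Among mice with little of it, the 3 Anesthesia mice were at 9581 to 10775 and the 1 Control mouse was at 7525, a log2 difference of 0.45. Among mice with much of it, the 1 Anesthesia mouse was at 8280 and the 3 Control mice were at 6326 to 7574, a log2 difference of 0.27. With the mean level of the choroid plexus markers in the fit, the log2 fold change of Miat was 0.37. Over the 8 mice, the Pearson correlation of Miat with that list was -0.72. For the other 8 genes it ran from -0.75 for Kcnq1ot1 to 0.44 for Airn. Choroid plexus was unevenly spread over the groups, and its part in the difference of Miat was not tested. Markers of the neocortex also differed between mice. A list of 7 such genes, which was added after their values had been seen, summed to 1904, 1389, 3374 and 2157 in Anesthesia mice 1 to 4 and to 1400 to 1911 in the Control mice. It shares a gene with the list of CA1 pyramidal neuron markers, so it is not specific to the neocortex. With the neocortex list in the fit, the log2 fold change of Miat was 0.44. A correction of each library for the GC content and transcript length of its genes gave the lowest value, 0.31.

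**Figure D1:**
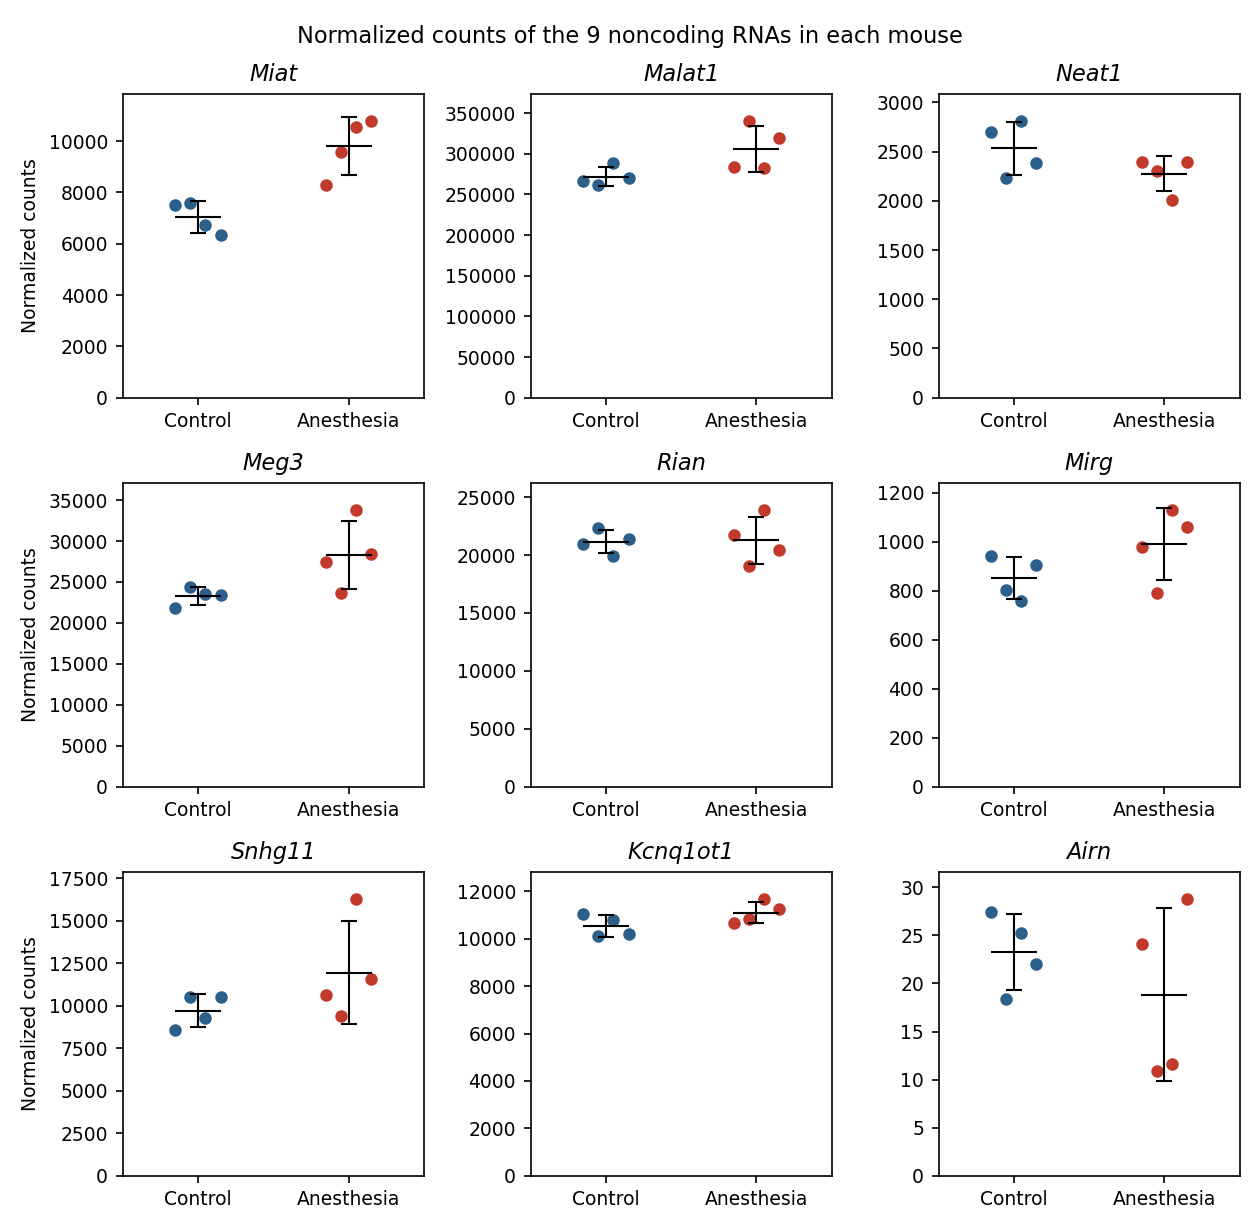
Normalized counts (vertical axes, starting at 0) of the 9 noncoding RNAs in the 4 Control (blue) and 4 Anesthesia (red) mice, 1 panel a gene. Points are mice, the long dash is the mean and the bars are ± SD. The groups are apart for Miat and overlap in each of the other 8 panels.

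None of the other 8 genes passed the test. Their adjusted p-values, from limma with Benjamini-Hochberg adjustment over all genes tested, ran from 0.620 to 0.989, and 0% of all genes tested had an adjusted p under 0.05. Of the 8 genes, 6 had a log2 fold change above 0 and 2 below, with a median of 0.12 beside a median of -0.004 over all genes tested. None had non-overlapping groups in either direction. An unadjusted p under 0.05 was reached by 2 of them, Malat1 and Meg3, both higher in Anesthesia, where 4.75% of all genes tested were higher and 3.27% lower at that level. None of them was tested against Miat, which had been chosen for its difference.

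Malat1, the speckle RNA, was at 283462, 340237, 282861 and 319524 normalized counts in Anesthesia mice 1 to 4. It was at 266110, 261879, 289300 and 270839 in Control mice 1 to 4. Control mouse 3 exceeded Anesthesia mice 1 and 3, so the groups overlapped. The log2 fold change was 0.17 (SE 0.08, 95% interval 0.0003 to 0.34), with an adjusted p of 0.622 in limma. Within mice with much choroid plexus, the log2 difference was 0.05, and within mice with little of it, it was 0.24.

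Neat1, whose gene lies 22.0 kb from Malat1 on the same strand, was at 2391, 2301, 2013 and 2395 normalized counts in the Anesthesia mice. It was at 2702, 2233, 2809 and 2384 in the Control mice. Here the values in the Anesthesia group were on average the lower ones. This gave a log2 fold change of -0.15 (SE 0.09, 95% interval -0.34 to 0.04), with an adjusted p of 0.671 in limma. The correction for GC content and length gave the lowest value under any alternative, -0.28. Of 18 proteins known from paraspeckles, 8 were higher and 10 lower, with a median log2 fold change of -0.04, and none passed the test. The groups did not overlap for 2 of the 18, both higher in Anesthesia. Among all genes tested, 2.81% had that pattern and 2.23% the opposite one. Rbm14, which paraspeckles need to form, was at 443 ± 23.6 and 394 ± 11.1 (SD, n = 4 each), with a log2 fold change of 0.17 (SE 0.07). Smarca4, a chromatin remodeling ATPase, was at 2732 ± 158 and 2510 ± 53.8 (SD, n = 4 each), with a log2 fold change of 0.12 (SE 0.06). The paraspeckle proteins Pspc1 and Hnrnpk were on the other side, with log2 fold changes of -0.17 (SE 0.08) and -0.13 (SE 0.06) and adjusted p-values of 0.636 in limma.

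The 3 maternally expressed RNAs of the Dlk1-Dio3 region are transcribed in the same direction along chromosome 12. They are often viewed as parts of a common transcript. Their log2 fold changes ran from 0.004 to 0.27 with overlapping 95% intervals, and they were not tested against each other. Their deviations from the group means had Pearson correlations of 0.85 for Meg3 with Rian, 0.63 for Meg3 with Mirg and 0.68 for Rian with Mirg. With the neocortex list, Pearson correlations over the 8 mice were 0.86 for Meg3, 0.87 for Rian and 0.83 for Mirg. Meg3, the first of the 3, was at 27433, 23655, 33770 and 28409 normalized counts in the Anesthesia mice. It was at 21817, 24417, 23562 and 23459 in the Control mice. Anesthesia mice 1, 3 and 4 stood above all Control mice and Anesthesia mouse 2 stood among them. The log2 fold change was 0.27 (SE 0.09, 95% interval 0.06 to 0.48), with an adjusted p of 0.620 in limma. With the neocortex list in the fit, the log2 fold change of Meg3 was 0.18, and with the correction for GC content and length it was 0.14.

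Rian, a host of small nucleolar RNAs and microRNAs that lies 32.2 kb downstream of Meg3, was at 21694, 19046, 23881 and 20435 normalized counts in the Anesthesia mice. It was at 20939, 22305, 19917 and 21408 in the Control mice. The groups were intermixed, with a log2 fold change of 0.004 (SE 0.07, 95% interval -0.15 to 0.16) and an adjusted p of 0.989 in limma. With scaling to library size alone it was -0.0033. Mirg, a host of microRNAs farther downstream, was at 978, 790, 1128 and 1060 in the Anesthesia mice and at 940, 803, 757 and 903 in the Control mice. Its log2 fold change was 0.21 (SE 0.11, 95% interval -0.04 to 0.46), with an adjusted p of 0.664 in limma. B830012L14Rik, the nearest listed gene upstream of Mirg, had a log2 fold change of 0.20 (SE 0.10) at 1004 ± 148 and 868 ± 39.6 (SD, n = 4 each), with an adjusted p of 0.650 in limma. Anesthesia mouse 3 was the highest of all 8 mice for Meg3, Rian, Mirg and B830012L14Rik. The protein-coding genes of the region were also within the spread. Rtl1, a paternally expressed gene between Meg3 and Rian, had a log2 fold change of 0.14 (SE 0.11). Dlk1, on the upstream side of Meg3, was low in every mouse, at 5.12 to 43.1 and 12.1 to 50.9, with a log2 fold change of -0.91 (SE 0.68).

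Snhg11, which GENCODE M21 classes as protein-coding, was at 10608, 9375, 16275 and 11551 normalized counts in the Anesthesia mice. It was at 8565, 10489, 9278 and 10502 in the Control mice. Anesthesia mouse 3 was far above the rest and Anesthesia mouse 2 lay within the Control range. The log2 fold change was 0.27 (SE 0.15, 95% interval -0.05 to 0.60), with an adjusted p of 0.660 in limma, and it was 0.11 without Anesthesia mouse 3. That mouse also had the highest level of the neocortex list, and with that list in the fit the log2 fold change was 0.12. Whether neocortical tissue accounts for the value was not tested. Snhg17, a further small nucleolar RNA host beside Snhg11 on chromosome 2, had a log2 fold change of 0.21 (SE 0.15). On the other side, Ralgapb, a subunit of a GTPase-activating complex for Ral proteins, was at 3877, 3657, 3859 and 4126 against 3399, 3508, 3072 and 3349. Its groups did not overlap, and its log2 fold change was 0.22 (SE 0.06) with an adjusted p of 0.568 in limma. Over all genes tested, 2.81% had this pattern and 2.23% the opposite one.

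**Figure D2:**
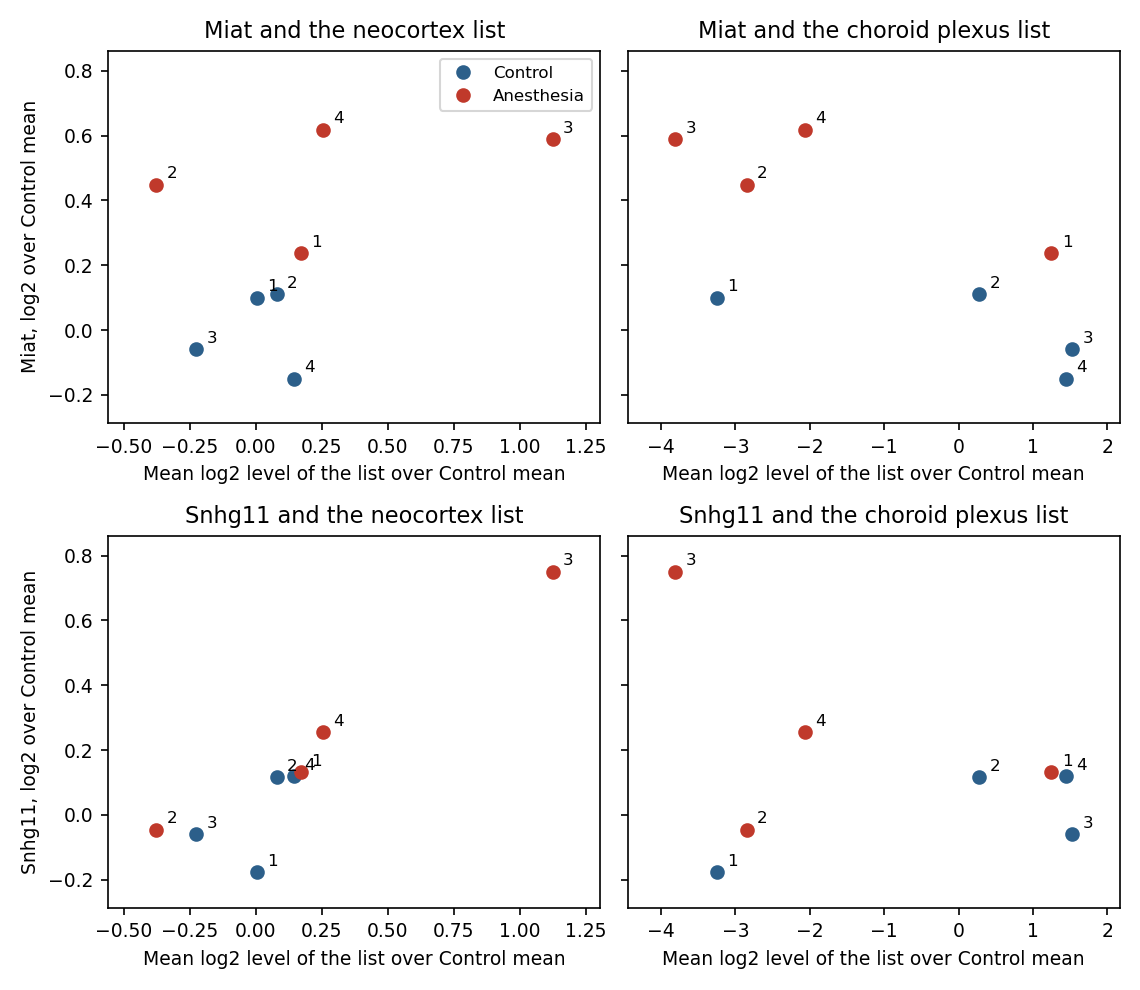
Level of Miat (top) and Snhg11 (bottom) in each mouse as log2 over the Control mean (vertical axes) against the mean log2 level of the neocortex list (left) and the choroid plexus list (right), also over the Control mean. Points are mice, numbered by replicate, blue for Control and red for Anesthesia. Anesthesia mouse 3 lies at 1.12 on the neocortex axis and at 0.75 for Snhg11, apart from the other 7, whereas for Miat all 4 Anesthesia mice lie above the 4 Control mice.

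Kcnq1ot1, the antisense transcript within Kcnq1, was at 10665, 10822, 11674 and 11264 normalized counts in the Anesthesia mice. It was at 11045, 10100, 10788 and 10198 in the Control mice. The groups overlapped, and the SE was the smallest of the 9 genes. This gave a log2 fold change of 0.08 (SE 0.05, 95% interval -0.04 to 0.19), with an adjusted p of 0.711 in limma, and it was -0.03 with the correction for GC content and length. Its host Kcnq1, a potassium channel gene on the opposite strand, was low at 3.08 to 33.2 and 2.52 to 16.1. Cdkn1c, a cell cycle inhibitor that Kcnq1ot1 is known to silence on the paternal chromosome, was at 219, 68.5, 79.7 and 65.1 in the Anesthesia mice and at 89.4, 121, 167 and 245 in the Control mice. Its log2 fold change was -0.62 (SE 0.40), with an adjusted p of 0.697 in limma, and its highest Anesthesia mouse was mouse 1, the one with much choroid plexus.

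Airn, the antisense transcript of Igf2r, was close to the minimum, at 24.1, 10.8, 11.6 and 28.8 normalized counts in the Anesthesia mice. It was at 27.4, 18.4, 25.3 and 22.0 in the Control mice. Anesthesia mice 2 and 3 were the lowest of the 8. The log2 fold change was -0.39 (SE 0.34, 95% interval -1.15 to 0.36), with an adjusted p of 0.762 in limma, and the interval was the widest of the 8. Igf2r, a growth factor receptor that Airn is known to silence on the paternal chromosome in many tissues, was at 2049 ± 190 and 2185 ± 104 (SD, n = 4 each), with a log2 fold change of -0.10 (SE 0.07). Reads of Kcnq1ot1 and Kcnq1, or of Airn and Igf2r, can be told apart only with strand, and the sources differ on whether the library kit kept it.

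**Figure D3:**
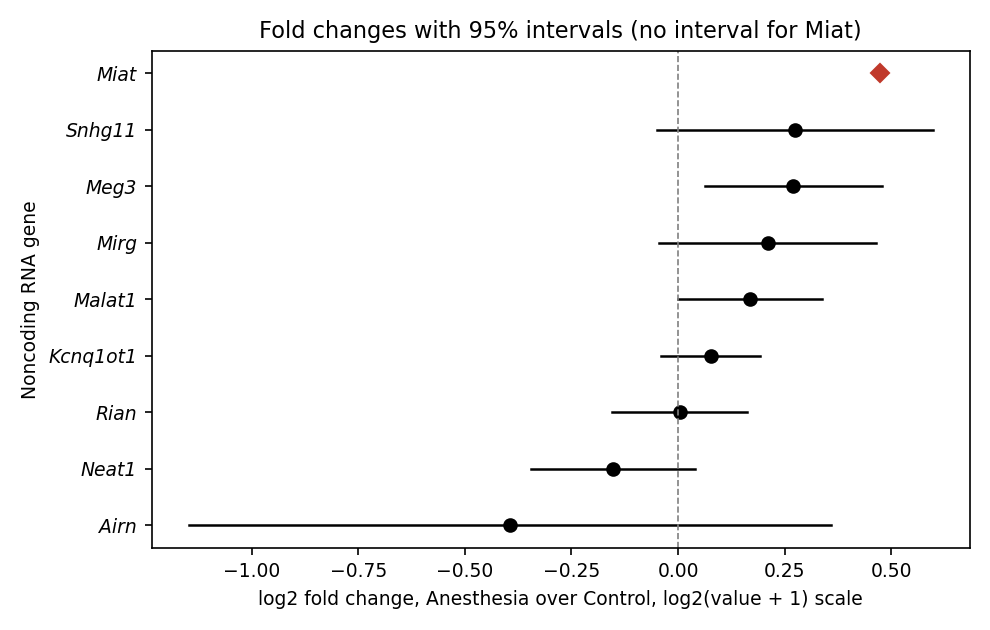
Log2 fold changes of the 9 noncoding RNAs, Anesthesia over Control (horizontal axis, log2(value + 1) scale). Circles are estimates from limma with 95% intervals as lines, and the diamond is Miat, shown with no interval because it was chosen by this difference. Miat lies at 0.47, and the other genes lie between -0.39 and 0.27.

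The 9 genes covered a wide range of abundance per length. In the Control group, the mean normalized counts per kb of the longest transcript were 38956 for Malat1, 2614 for Rian, 1656 for Snhg11, 1603 for Meg3, 768 for Miat, 223 for Mirg, 122 for Neat1, 113 for Kcnq1ot1 and 16.9 for Airn. The Control mice overlapped between Snhg11 (1461 to 1791 per kb) and Meg3 (1500 to 1678), and between Neat1 (107 to 135) and Kcnq1ot1 (108 to 119). All other neighbors in the order were apart. In the Anesthesia group Miat averaged 1070 per kb and stayed at rank 5. These levels depend on the transcript taken for the length, which matters most for genes with many isoforms such as Meg3 and for Airn, whose unspliced form is far longer than its annotated transcripts. Together the 9 genes took 1.80 to 2.16% of all normalized counts of a mouse.

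Genes around Miat were examined next. Within 500 kb, 17 genes were listed and 15 were tested. Of these, 12 had a log2 fold change above 0 and 3 below, with a median of 0.16, and none passed the test. The share above 0 was 49.2% over all genes tested. Of the 15, 3 had non-overlapping groups with Anesthesia higher and 0 the opposite, beside the 2.81% and 2.23% of all genes tested given above. Gm6588, a gene model 220 kb away inside Sez6l on the opposite strand, was at 68.7, 64.6, 65.2 and 79.1 normalized counts against 42.0, 47.0, 51.8 and 49.7. Its log2 fold change was 0.53 (SE 0.15), with an adjusted p of 0.573 in limma. Sez6l itself, a neuronal membrane protein gene, was at 3765 ± 230 and 3490 ± 72.1 (SD, n = 4 each), with a log2 fold change of 0.11 (SE 0.06). The other 2 were the gene model Gm6583, at 14.4 to 25.8 against 7.39 to 14.3, and Myo18b, a myosin gene, at 40.9 to 67.8 against 22.3 to 40.8, with log2 fold changes of 0.90 (SE 0.31) and 0.61 (SE 0.24). The lowest Anesthesia mouse and the highest Control mouse were nearly equal for Myo18b, at 40.88 and 40.84. The nearest genes on the right side of Miat, the crystallin genes Cryba4 and Crybb1, were low or untested, and their groups overlapped. The genes that overlap Miat itself, Gm26953 on the opposite strand and the short RNA Gm27998 on the same strand, had log2 fold changes of -0.07 and 0.05. The better expressed neighbors Tpst2, Tfip11, Hps4 and Asphd2 had log2 fold changes of 0.04, 0.09, 0.16 and -0.001, the last of which was 0.0099 with upper quartile scaling.

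**Figure D4:**
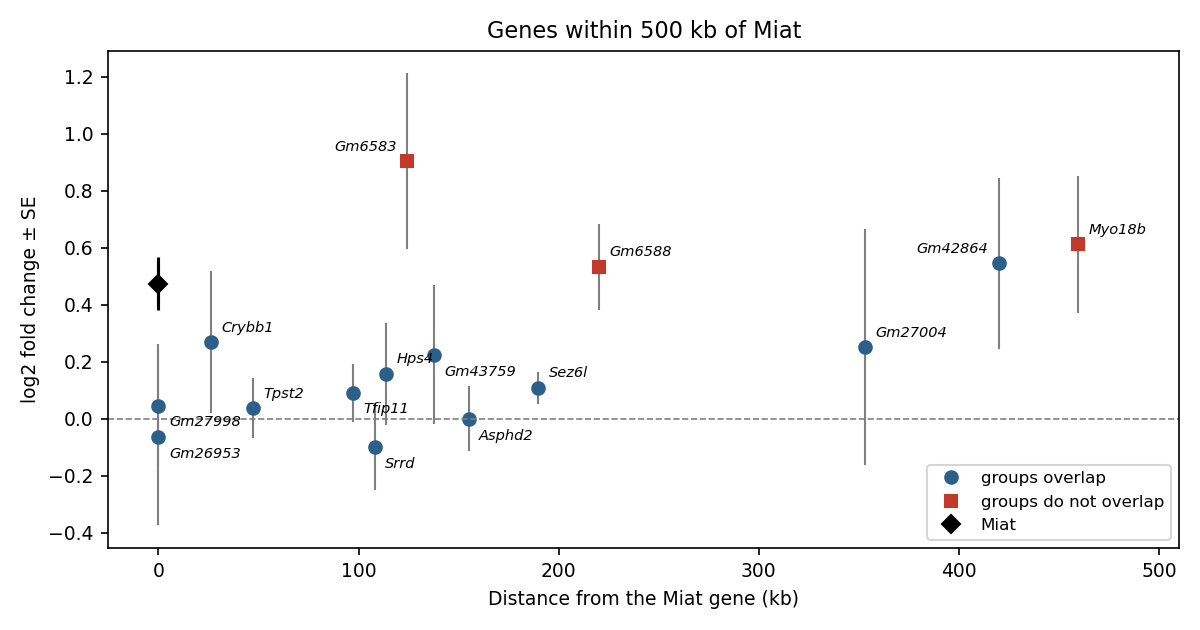
Log2 fold change, Anesthesia over Control (vertical axis, with ± SE), of the 15 tested genes within 500 kb of Miat against their distance from the Miat gene in kb. Red squares mark the 3 genes whose groups did not overlap, blue circles the other 12, and the black diamond is Miat. The 3 red squares lie at 0.53, 0.61 and 0.90, and all other neighbors except Gm42864 at 0.54 lie between -0.10 and 0.27.

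Other lists of noncoding RNAs were fitted in the same model to see whether lncRNAs of related kinds shared the direction of Miat. Of 6 further imprinted lncRNAs, 4 were higher and 2 lower, and none passed. Snhg14, the host of the Snord115 and Snord116 clusters, was at 59331 ± 4744 and 56853 ± 2373 (SD, n = 4 each), with a log2 fold change of 0.06 (SE 0.07). H19 was at 5.94 to 13.1 and 11.2 to 48.4, a log2 fold change of -1.16 (SE 0.45) with an adjusted p of 0.620 in limma, and its groups overlapped. Of 14 further small nucleolar RNA hosts, 6 were higher and 8 lower with a median of -0.05, and none passed. Snhg5 had the largest difference among them, at 147 ± 25.0 and 194 ± 21.7 (SD, n = 4 each), which gave a log2 fold change of -0.40 (SE 0.14). Of 21 other brain or nuclear lncRNAs, 9 were higher and 12 lower with a median of -0.01, and none passed. Tug1, a lncRNA required for retinal development, was at 2583, 2654, 2537 and 2570 in the Anesthesia mice against 2771, 2819, 2896 and 2826 in the Control mice. All 4 Anesthesia values were lower, with a log2 fold change of -0.13 (SE 0.05) and an adjusted p of 0.620 in limma. Tug1 was the 1 gene of the 21 with non-overlapping groups, and 2.23% of all genes tested had this pattern. Firre, a nuclear architecture RNA, had a log2 fold change of -0.19 (SE 0.07), and Mir9-3hg, a microRNA host of neural cells, had one of 0.35 (SE 0.12), both with an adjusted p of 0.620 in limma.

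Among the 47 lncRNA genes with a mean of at least 1000 normalized counts, 36 were higher and 11 lower in the Anesthesia group. Miat was the 1 gene at or above its own 0.47, but nothing is read from this rank, because Miat was chosen for this difference. Over all levels, 337 of the 3554 lncRNA genes tested were at or above that value, as were 315 of 14625 protein-coding genes and 725 of all 18865 genes. Among the 47, the next was C230004F18Rik, at 4327, 2577, 4368 and 2146 against 2501, 2431, 2505 and 2208. Its log2 fold change of 0.41 (SE 0.20) goes with Anesthesia mice 1 and 3, which stood far above the other 6, and the groups overlapped. Besides Miat, which was chosen by its values, AC127249.1, Gm42860 and Gm47486 had non-overlapping groups with Anesthesia higher. Their log2 fold changes were 0.15, 0.12 and 0.11. Of all genes tested with a mean of at least 1000, 3.92% had this pattern and 3.57% the opposite one. Tug1 was the 1 gene of the 47 with the opposite pattern. These genes are named by their rank and pattern, after their values had been seen.

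LncRNAs as a class were slightly higher in the Anesthesia group. This comparison was chosen after the values had been seen and carries no test. Of 3554 lncRNA genes tested, 67.4% had a log2 fold change above 0, with a median of 0.10, whereas of 14625 protein-coding genes 44.3% did, with a median of -0.02. The groups did not overlap with Anesthesia higher for 4.50% of the lncRNA genes and with Anesthesia lower for 0.73%, against 2.39% and 2.63% of the protein-coding genes. The median level of the lncRNA genes outside the 9, relative to the Control mean and minus that of the protein-coding genes, was 0.049, 0.142, 0.215 and 0.095 log2 units in Anesthesia mice 1 to 4. In Control mice 1 to 4 it was 0.035, 0.007, 0.011 and -0.027. Every Anesthesia mouse was above every Control mouse, although Anesthesia mouse 1 and Control mouse 1 were close. The group means were 0.125 ± 0.071 and 0.006 ± 0.026 (SD, n = 4 each). Their difference was 0.119 over all mice, 0.115 among mice with little choroid plexus and 0.052 among mice with much of it. With the choroid plexus list in the fit, the median fold changes of the lncRNA and protein-coding genes outside the 9 were 0.07 and -0.01.

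The class difference was seen at each of 4 levels of expression. At means of 10 to 30, 30 to 100, 100 to 1000 and over 1000 normalized counts, the medians of the lncRNA genes outside the 9 were 0.11, 0.10, 0.08 and 0.06, and those of protein-coding genes were -0.01, -0.04, -0.02 and -0.02. It varied with the annotated kind of gene. The median was 0.13 for 154 sense intronic genes, 0.11 for 1707 genes that await experimental support (TEC in GENCODE), 0.09 for 764 antisense genes and 0.05 for both 531 lincRNA genes and 320 processed transcripts. Genes within introns on the same strand cover sequence that unspliced RNA of the host gene also holds, and antisense genes can share reads with their partner if strand was not kept, which the sources leave unsettled. Processed pseudogenes, which are no lncRNAs, also had a median of 0.11, over 446 genes. The part of unspliced RNA, RNA quality or mapping in this difference was not tested.

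**Figure D5:**
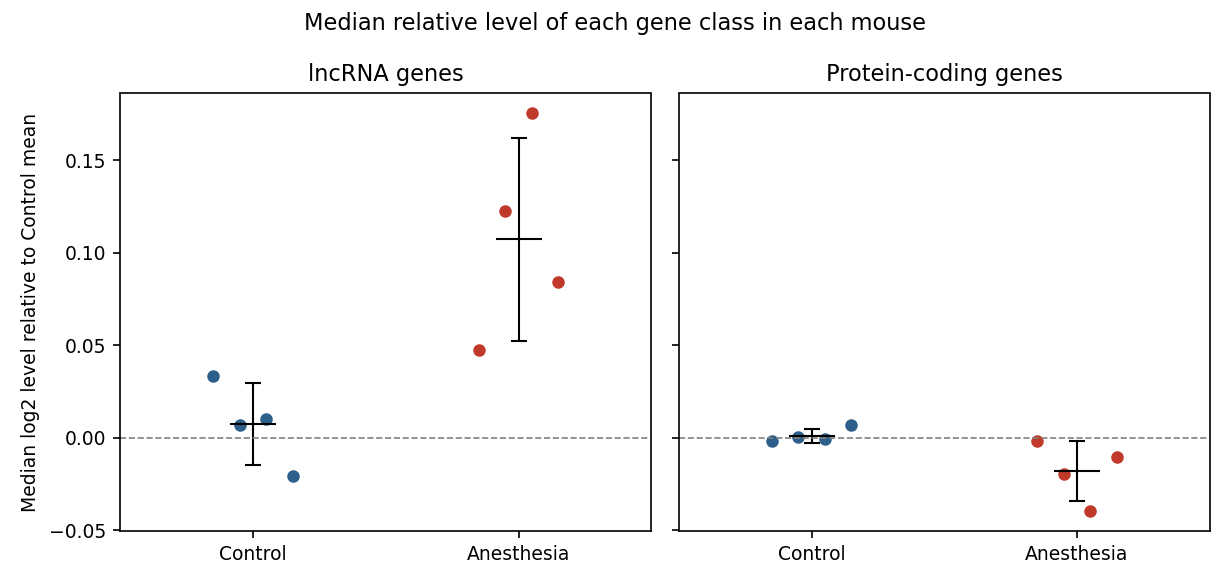
Median log2 level relative to the Control mean (vertical axis) of lncRNA genes outside the 9 (left) and of protein-coding genes outside the 9 (right) in each mouse. Points are mice, the long dash is the group mean and the bars are ± SD. The lncRNA medians lie between 0.05 and 0.18 in the 4 Anesthesia mice and between -0.02 and 0.03 in the 4 Control mice.

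The splicing factors with which Miat or Malat1 is known to associate, and other factors of the same kind, were then examined. Of 23 factors tested, 11 were higher and 12 lower, with a median log2 fold change of -0.03, and none passed the test. The groups did not overlap for 3 of the 23 with Anesthesia higher and for 2 with Anesthesia lower. Over all genes tested, these patterns had shares of 2.81% and 2.23%. Sf1, the protein that recognizes the branch point motif, was at 693 to 726 normalized counts against 649 to 680. Its groups did not overlap, but the log2 fold change was only 0.09 (SE 0.06), with an adjusted p of 0.694 in limma. Celf3, which is known to bind Miat, was at 782 to 1023 against 662 to 908, a log2 fold change of 0.13 (SE 0.13).

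Other factors of the list differed more. Srrm2, a core protein of nuclear speckles, was at 6066, 6222, 7756 and 6464 against 4838, 5053, 5366 and 5257. All 4 Anesthesia mice were above all Control mice, with a log2 fold change of 0.36 (SE 0.08) and an adjusted p of 0.565 in limma. Rbfox3, the neuronal splicing regulator known as NeuN, was at 903, 1053, 1159 and 994 against 806, 874, 824 and 831, with a log2 fold change of 0.30 (SE 0.08) and an adjusted p of 0.568 in limma. Srsf3, a serine- and arginine-rich splicing factor, was lower, at 2847, 2958, 2545 and 2793 against 3184, 3144, 3149 and 3183. Its log2 fold change was -0.19 (SE 0.06), with an adjusted p of 0.611 in limma. Ptbp1, a repressor of neuronal exons, had the lowest log2 fold change of the list, -0.20 (SE 0.15), with overlapping groups and an adjusted p of 0.727 in limma. Srsf2 was lower in all 4 Anesthesia mice as well, at 1561 ± 39.1 against 1703 ± 115 (SD, n = 4 each).

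The genes whose pattern over the 8 mice was most like that of Miat were sought among 12248 genes with a mean of at least 100 normalized counts, by the Pearson correlation of log2(value + 1). The 5 closest were D630045J12Rik, Hdgfl2, Gatad2b, Dnajb14 and Usf3, with r of 0.97, 0.97, 0.96, 0.96 and 0.96. D630045J12Rik was at 1062, 1123, 1250 and 1204 against 945, 1021, 918 and 915, so that it followed Miat both between the groups and in having mouse 1 lowest within the Anesthesia group. A gene that differs between the groups scores high on this measure by that alone. By deviations from the group means, the 5 closest were Zdhhc21, Slc16a7, Mpped2, Ctnnbip1 and Gm37311, with r of 0.97, 0.97, 0.97, 0.96 and 0.95. Zdhhc21, a palmitoyltransferase gene, had a log2 fold change of 0.01. None of the other 8 genes was near these values. Over the 8 mice, r with Miat was 0.74 for Kcnq1ot1, 0.72 for Meg3, 0.62 for Malat1, 0.59 for Mirg, 0.58 for Snhg11, 0.11 for Rian, -0.41 for Airn and -0.58 for Neat1. By deviations from the group means it was 0.56 for Kcnq1ot1, 0.30 for Meg3, 0.05 for Malat1, 0.30 for Mirg, 0.31 for Snhg11, 0.18 for Rian, -0.13 for Airn and -0.27 for Neat1. These values describe 8 points and carry no test.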

How the data were processed

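RNA from the hippocampus of 8 mice was sequenced, and 1 table of normalized counts for 20802 genes was used. Per the labels and the deposited processing notes, the authors quantified reads with Salmon 1.1.0 against GRCm38 and divided the counts by DESeq2 1.30.1 size factors in R 3.5.3. These signal values are not raw counts, and whole reads were not recovered from them, so no count model was fitted and library depth was not estimated here. Their annotation release is not given in the sources used here. The labels name a TruSeq RNA kit v2, whereas the study's methods name a stranded total RNA kit. Transcripts without a poly(A) tail took 9.26 to 10.3% of the table. Symbols, biotypes, coordinates and sequences came from GENCODE M21, which matched 20784 genes and left 18 without a symbol.

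Values were analyzed as log2(value + 1) with limma 3.58.1 (mean-variance trend, no covariate) in R 4.3.3 after 18865 genes had passed the minimum mean of 10, with Benjamini-Hochberg adjustment across these genes. The fit was tested on simulated data, with added changes larger than those of the 9 genes and noise drawn separately for each gene. It therefore does not show whether differences of the size seen here could be detected. Mice were grouped by title. Replicate numbers were checked as pairs. The correlations of same-numbered mice around the group means were -0.24, -0.11, -0.18 and 0.02. They showed no pairing by number but cannot exclude one. Alternatives were another pseudocount, other filters and scalings, limma voom, a replicate block, a correction for GC content and transcript length, marker lists as covariates and leaving out each mouse. The genes, lists and tests were chosen with earlier results of these data known. Of each list, the 2 genes with the smallest p in each direction were to be named, besides the 9 genes, their nearest neighbors and the genes most like Miat. Other genes were named after their values had been seen.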

Additional observations from a re-analysis of the deposited data

Results flagged for a closer look

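In 154 groups of 4 mice examined for the named genes, 7 had a mouse apart from the other 3 by Dixon's criterion, where chance alone gives 7.7. Slc25a45, a mitochondrial carrier gene near Malat1, was at 75.0 normalized counts in Anesthesia mouse 4 and at 54.3 to 55.7 in the other 3. Rtl1, beside Meg3, was at 693 in Anesthesia mouse 3 and at 506 to 537 in the others. Cdkn1c, near Kcnq1ot1, was at 219 in Anesthesia mouse 1 and at 65.1 to 79.7 in the others. Mrpl18, near Airn, was at 603 in Control mouse 3 and at about 639 in the others. Celf3 was at 1023 in Anesthesia mouse 2 and at 782 to 821 in the others, and Myo18b, near Miat, was at 67.8 in the same mouse and at 40.9 to 44.4 in the others. The lncRNA AC127249.1 was at 984 in Control mouse 3 and at 1076 to 1084 in the others. None of the 9 noncoding RNAs had a mouse apart by this criterion.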

How the results depend on the processing

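Under all 19 alternatives Miat had a log2 fold change between 0.31 and 0.55. Because its groups did not overlap, leaving out a mouse could not change its direction, and nothing is read from the kept direction. The median of the other 8 genes stayed between 0.06 and 0.15. Single genes moved more, with ranges of -0.28 to -0.09 for Neat1, 0.14 to 0.35 for Meg3, 0.11 to 0.31 for Mirg, 0.11 to 0.38 for Snhg11 and -0.63 to -0.19 for Airn. Miat was at 0.31 with the correction for GC content and transcript length, with or without the replicate block. The count of genes with an adjusted p under 0.05 in limma was 0 under every alternative, except that leaving out 1 mouse gave 0 to 2, the 2 being mt-Nd4l and Gm10222 without Control mouse 1. In the main analysis 1513 genes had an unadjusted p under 0.05, compared to 850 with the choroid plexus list in the fit, 1084 with the replicate block and 863 with the block and the correction for GC content and length. With the replicate block no adjusted call changed.

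Of 76 genes other than Miat that were recomputed, 63 kept their direction and 13 changed sign under at least 1 alternative, and no cause was tested. These 76 are no neutral sample. Many were named for a small p or likeness to Miat, and 25 after their values were seen or beside the naming rule. A gene whose groups do not overlap cannot change sign when a mouse is left out. The count of 63 is therefore no measure of stability. Rian was at -0.0033 with library size scaling, -0.0035 with limma voom, -0.015 with the correction for GC content and length with or without the block, -0.0023 with the choroid plexus list and -0.060 with the neocortex list. The correction for GC content and length, with or without the block, gave -0.033 for Kcnq1ot1, -0.0037 for Sez6l, -0.041 for Begain, -0.0024 for Smarca4 and -0.028 for Zdhhc21. Zdhhc21 was at -0.12 with the choroid plexus list and -0.052 with the neocortex list, and Gm27998 was at -0.14 with the choroid plexus list. Asphd2 was at 0.0099 with upper quartile scaling and 0.079 with the neocortex list. Leaving out 1 mouse gave ranges of -0.053 to 0.056 for Rian, -0.087 to 0.058 for Peg13, -0.084 to 0.090 for Asphd2, -0.028 to 0.17 for Begain, -0.019 to 0.091 for Acat2, -0.17 to 0.027 for Dhx35, -0.032 to 0.11 for Tpst2, -0.27 to 0.072 for Gm26953, -0.066 to 0.17 for Gm27998 and -0.058 to 0.10 for Zdhhc21. With 4 mice a group and with library depth not estimated, a difference smaller than the spread between mice could not be detected, as for Airn.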

Other observations

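Markers of other cells of the hippocampus gave the setting in which the noncoding RNAs were measured, and none of these lists held a gene that passed the test in limma. Of 10 dentate granule neuron markers 4 were higher and 6 lower, with a median of -0.01 on the log2 scale, and of 10 CA1 pyramidal neuron markers 3 were higher and 7 lower, with a median of -0.11. Of 12 GABAergic interneuron markers 4 were higher and 8 lower (median -0.04), and of 9 thalamus markers 2 were higher and 7 lower (median -0.12). Calb2, a calcium-binding protein of the midline thalamus and of interneurons, was at 370 ± 132 and 499 ± 47.9 normalized counts (SD, n = 4 each).

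Among glia and vessels, 3 of 10 astrocyte, 1 of 10 oligodendrocyte, 7 of 10 microglia and 5 of 10 endothelium markers were higher. Slc1a2, the main astrocyte glutamate transporter gene, was at 81456 ± 5201 and 72472 ± 2706 (SD, n = 4 each), with overlapping groups. The glutamate transporter gene Slc1a3 was at 11062 ± 234 and 11820 ± 144, and the gap junction gene Gja1 at 2427 ± 85.1 and 2612 ± 13.3 (SD, n = 4 each), both without overlap of the groups. P2ry12, a receptor of resting microglia, was at 718 ± 29.2 and 643 ± 60.4 (SD, n = 4 each), also without overlap. The groups thus did not overlap for 2 of 10 astrocyte markers, both lower, and for 1 of 10 microglia markers. They overlapped for all 10 oligodendrocyte and all 10 endothelium markers. All 5 blood genes and all 12 choroid plexus genes were lower on average, with medians of -0.22 and -1.92, whereas 6 of the 7 neocortex genes were higher, with a median of 0.41. Of 13 mitochondrially encoded genes 9 were higher and 4 lower. Among the lower ones mt-Nd4l was listed at 0 in all 4 Anesthesia mice and in Control mouse 1, and at 48.0, 60.5 and 56.6 in Control mice 2 to 4. Of 9 transcripts without a poly(A) tail 6 were higher and 3 lower. Rpph1, the RNA of ribonuclease P, was lower in all 4 Anesthesia mice, at 46422 ± 1401 against 50897 ± 2680 (SD, n = 4 each). Over all genes tested, the groups did not overlap with Anesthesia higher for 2.81% and with Anesthesia lower for 2.23%.

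Around the other noncoding RNAs, within 500 kb, 31 of 52 tested genes near Malat1, 6 of 7 near Meg3, 7 of 16 near Snhg11, 5 of 13 near Kcnq1ot1 and 6 of 12 near Airn were higher in the Anesthesia group. Their median log2 fold changes were 0.04, 0.14, -0.02, -0.06 and -0.004. The genes near Malat1 included Neat1, and those near Meg3 included Rian and Mirg, so these counts are not separate from the 9 noncoding RNAs. Of all genes tested, 49.2% were higher in the Anesthesia group. Near Malat1, the groups did not overlap for 2 of the 52 genes with Anesthesia higher and for 0 with Anesthesia lower. These patterns had shares of 2.81% and 2.23% over all genes tested. One was Dpf2, a chromatin factor gene, at 396 ± 15.6 and 370 ± 10.9 (SD, n = 4 each), with an adjusted p of 0.727 in limma. The other was Gm10814, at 14.2 to 20.5 against 6.15 to 13.4.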
